A study of Homo sapiens with 4 samples.

Results

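The genes described here are DUSP6, SPRY4, ETV5, BTC, JUN, JUND and EGR1, which encode feedback inhibitors, transcription factors and a growth factor tied to the ERK kinase and AP-1 pathways. They are 7 of the 14884 genes that carried a symbol in the platform annotation, and they were chosen by name because their deposited expression values were lower in verticillin A treated cells than in untreated cells. Their differences are therefore given as a description, with no test, while the other genes of the pathway were tested. Where a gene had several probe sets the brightest one stood for it, and 6 of the 7 genes had a single probe set.

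The cells were the human line LS411N-5FU-R, which is resistant to the antimetabolite 5-fluorouracil (5-FU) and was derived from LS411N, a metastatic colon carcinoma line. One group received 50 nM verticillin A for 3 days (2 arrays) and the control group, the same resistant line, was kept for 3 days with 0 nM (2 arrays). Both were grown in RPMI medium with 10% FBS. Verticillin A is a fungal metabolite, and the series concerns histone H3 lysine 9 trimethylation, immune escape and resistance to 5-FU, so the single contrast asks which transcripts differ with the compound in resistant cells. The labels name neither separate cultures nor a batch, so the spread between the arrays of a group may be technical, and parental LS411N cells were not analysed here.

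Over all probe sets the treated pair of arrays correlated at 0.995 and the control pair at 0.994, against 0.990 to 0.992 between groups, across probe sets that are not independent replicates. Values are on a log2 scale, where 1 unit is a doubling of the signal. Array medians were 4.59 to 4.62, and no detection calls were used, so a value near the median cannot be told from background. Of 13 colon epithelial markers 9 were measured. EPCAM read 10.94 on both treated arrays, against 11.09 and 11.13 in control cells, and KRT19 rose (0.44, limma adjusted p = 0.0493) while VIL1, the villin gene, fell (-0.62, limma adjusted p = 0.0167). By contrast, CDX1, KRT20, GPA33 and CDX2, all colonic differentiation markers, read between 3.96 and 5.53 on every array. The measured fibroblast, leukocyte and endothelial markers read 3.38 to 4.65. The part of these marker differences in the values of the 7 genes was not tested. Loss of expressing cells and less RNA per cell cannot be told apart in these bulk values.

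ERK is the last kinase of the cascade that runs from growth factor receptors through RAS, RAF and MEK. Active ERK phosphorylates ETS-type factors that switch on immediate early genes such as EGR1 and the AP-1 subunits, and it also induces its own brakes, including the phosphatase DUSP6 and the Sprouty proteins. In the intestinal epithelium this pathway carries the signal of EGF family ligands that drives proliferation, and it is frequently activated by mutation in colorectal cancer.

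All 7 genes were lower with verticillin A, and the log2 differences ranged from -1.11 (DUSP6) to -0.63 (JUND), a 2.15-fold to 1.55-fold lower signal. The median difference was -1.02, beside a median of -0.01 over all 14884 genes, whose 5th and 95th percentiles were -0.41 and 0.35. Both treated arrays lay below both control arrays in 7 of 7 genes, an arrangement that 29.1% of all genes tested also showed, and from which nothing is read because the genes were picked for it. Across all genes, 42 had a deeper difference than DUSP6 and 219 a deeper one than JUND.

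**Figure D1:**
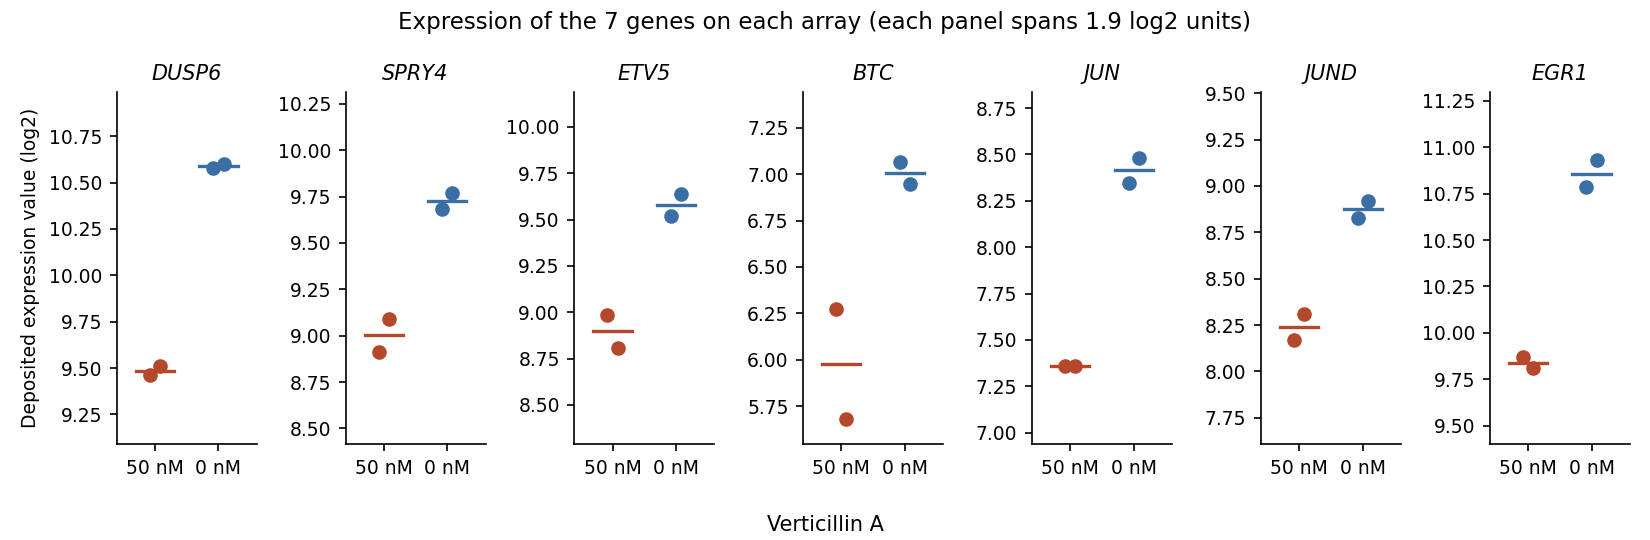
Deposited log2 expression value of each of the 7 genes on every array, with 50 nM verticillin A on the left and 0 nM on the right of each panel (points are single arrays, the line is the mean of 2 arrays, and each panel has its own axis of the same span). The groups do not overlap in any panel, and the widest gap between arrays of a group is that of BTC with verticillin A (0.59).

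BTC encodes betacellulin, an EGF family ligand that binds EGFR and ERBB4. It read 6.27 and 5.68 with verticillin A, against 7.07 and 6.95 in control cells. The groups did not overlap, although the treated arrays differed from each other by 0.59. The mean was 5.98 ± 0.42 with verticillin A and 7.01 ± 0.08 in control cells (SD, n = 2 each), a log2 difference of -1.03 with a standard error (SE) of 0.19. Without verticillin A replicate 2 the difference was -0.74 and without verticillin A replicate 1 it was -1.33, so the size of the BTC difference depended on the treated array used.

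The other ligand and receptor genes, like the remaining genes of the pathway, were tested with limma over all 14884 genes, and a gene is called at a Benjamini-Hochberg adjusted p under 0.05. By this rule 5.1% of all genes were called lower and 3.55% higher with verticillin A. Of 8 other EGF family ligand genes measured, 0 were called lower and 1 higher, with a median log2 difference of 0.13. The called gene was NRG1, neuregulin 1, a ligand of ERBB3 and ERBB4, which read 4.99 and 5.30 with verticillin A and 4.40 and 4.59 in control cells (log2 difference 0.65 ± 0.13 SE, limma adjusted p = 0.0423). Both control values lay below their array medians, so they cannot be told from background and the size of the NRG1 difference is uncertain. EREG, the epiregulin gene, had the next lowest difference of the ligands after BTC, at -0.27 ± 0.07 (limma adjusted p = 0.0735), with 12.40 on both treated arrays against 12.63 and 12.71 in control cells. EGF (0.29 ± 0.07) and NRG4 (0.21 ± 0.08) had positive differences that did not pass, and HBEGF stood at 0.13 ± 0.09.

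Among the 3 receptor genes measured, ERBB3, which pairs with other receptors of the family because its own kinase is weak, fell. Its values were 7.30 and 7.26 with verticillin A and 7.74 on both control arrays (log2 difference -0.46 ± 0.07, limma adjusted p = 0.022). EGFR itself differed by -0.25 ± 0.07 and did not pass (limma adjusted p = 0.0834). ERBB4 stood at 0.12 ± 0.08, at values below the array median.

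Of 16 measured genes of the RAS, RAF, MEK and ERK cascade, 2 fell and 0 rose, with a median of 0.01. The nucleotide exchange factor SOS2 fell to 8.63 and 8.64 with verticillin A, against 9.11 and 9.01 in control cells (-0.43 ± 0.07, limma adjusted p = 0.0302). The docking protein gene GAB1 fell by 0.33 on the log2 scale (limma adjusted p = 0.04996), a call that ended after centring the arrays on their medians (adjusted p = 0.053) and with an intensity trend in the variance prior (adjusted p = 0.0803). Of the kinases themselves, chosen for naming after their values were seen, the MEK genes MAP2K1 and MAP2K2 both had differences of 0.27 ± 0.07, and MAPK3, which encodes ERK1, stood at 0.05 ± 0.09. None of these 3 genes passed the test.

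DUSP6 encodes a cytoplasmic phosphatase that dephosphorylates ERK and is itself induced by ERK signalling. It read 9.46 and 9.51 with verticillin A, against 10.58 and 10.60 in control cells. The arrays within a group lay within 0.05 of each other, and every treated array was at least 1.07 below every control array. The difference of -1.11 ± 0.07 (SE) left 46.5% of the control signal.

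Of 14 other DUSP genes measured, 1 fell and 1 rose, with a median of -0.03. DUSP16, a phosphatase that acts on JNK and p38, fell to 7.27 and 7.08 with verticillin A, against 7.72 and 7.67 in control cells (-0.52 ± 0.09, limma adjusted p = 0.0302). DUSP14 rose to 8.69 and 8.74 with verticillin A, against 8.35 and 8.31 in control cells (0.39 ± 0.07, limma adjusted p = 0.0325). DUSP4 and DUSP5, nuclear phosphatases that are also known targets of ERK signalling, had differences of 0.26 ± 0.07 and -0.19 ± 0.07, and neither passed (limma adjusted p = 0.0996 and 0.153). DUSP1, an immediate early phosphatase, read 6.86 and 6.95 with verticillin A and 6.67 and 6.90 in control cells, with overlapping groups.

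SPRY4 encodes a Sprouty protein, a feedback inhibitor that acts between receptor and RAF. Its values were 8.91 and 9.09 with verticillin A and 9.68 and 9.77 in control cells. The treated arrays were 0.18 apart, and the smallest gap between a treated and a control array was 0.59. The log2 difference was -0.73 ± 0.09 (SE), or 60.5% of the control signal. Only 2 other genes of the Sprouty and Spred list were measured. SPRY3 fell by 0.39 on the log2 scale (limma adjusted p = 0.0351), though not with an intensity trend in the prior (adjusted p = 0.0536). SPRY2 read 7.37 and 7.55 with verticillin A and 7.90 and 7.57 in control cells (-0.27 ± 0.13, limma adjusted p = 0.269), and one control array lay beside the treated arrays.

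ETV5 encodes an ETS transcription factor of the PEA3 subfamily, whose transcription follows ERK activity. On the treated arrays it read 8.98 and 8.81, against 9.52 and 9.64 in control cells, and the groups did not overlap. The log2 difference was -0.68 ± 0.09 (SE), or 62.3% of the control signal. Of 6 other ETS genes measured, 2 fell and 1 rose, with a median of -0.29. ETV1, of the same subfamily, fell to 7.27 and 7.45 with verticillin A, against 8.05 and 8.12 in control cells (-0.73 ± 0.09, limma adjusted p = 0.0159). ETS2 fell to 9.19 and 9.22, against 9.89 and 9.99 in control cells (-0.74 ± 0.07, limma adjusted p = 0.0113). ETV4, the other PEA3 factor, had a difference of -0.35 ± 0.09 that did not pass (limma adjusted p = 0.0683). ETS1 rose by 0.44 ± 0.07 (limma adjusted p = 0.0266), with 6.89 and 6.97 in treated cells against 6.50 and 6.47 in control cells.

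**Figure D2:**
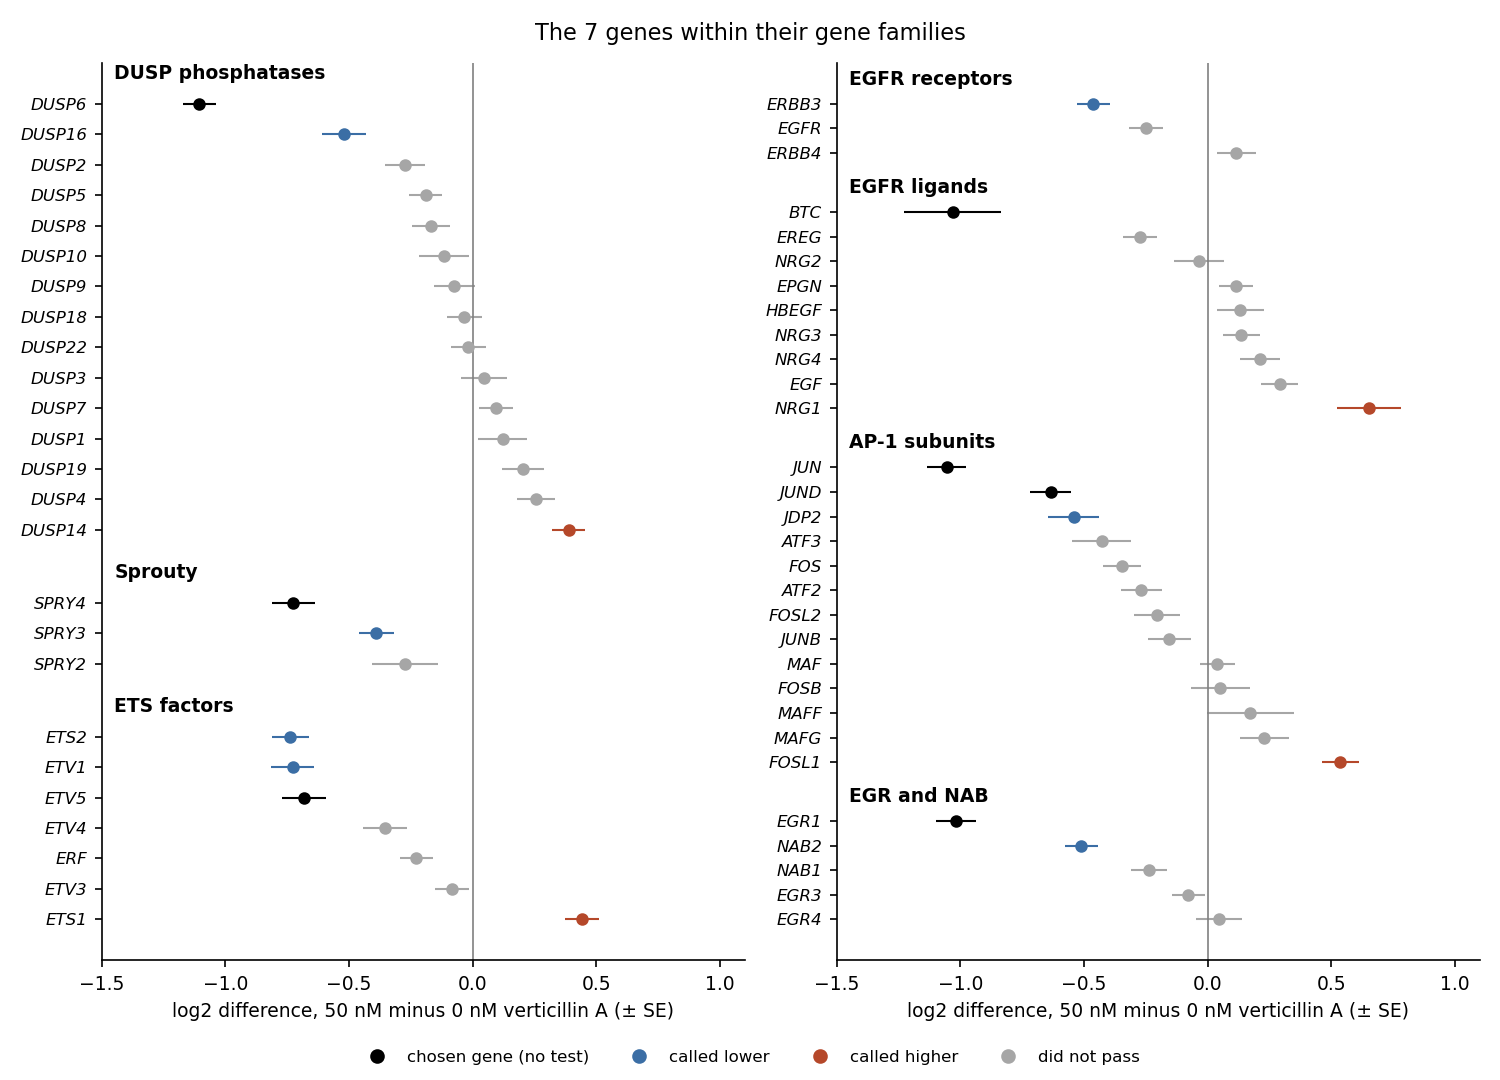
Log2 difference (50 nM minus 0 nM verticillin A) with its SE for every measured gene of the 7 family lists, 2 arrays per group (black, the 7 chosen genes; blue, called lower; red, called higher; grey, did not pass). DUSP6, SPRY4, BTC, EGR1 and JUN, chosen for their lower values, lie left of the other genes of their families. ETV5 lies right of ETS2 and ETV1, and JUND right of JUN. DUSP14, ETS1, NRG1 and FOSL1 lie on the right.

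JUN and JUND encode Jun proteins, which bind DNA as dimers with each other or with Fos and ATF proteins and so form AP-1. JUN is an immediate early gene that can act on its own promoter, whereas JUND is expressed more constantly in many cells. JUN read 7.357 and 7.360 with verticillin A, against 8.35 and 8.48 in control cells. The treated arrays were nearly identical and both lay at least 0.99 below the control arrays. The difference was -1.06 ± 0.08 (SE), or 48.1% of the control signal.

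JUND read 8.17 and 8.31 with verticillin A, against 8.83 and 8.92 in control cells. The groups were separated by at least 0.52. Its difference of -0.63 ± 0.08 (SE) left 64.4% of the control signal. The treated-minus-control differences between single arrays ran from -1.13 to -0.99 for JUN and from -0.75 to -0.52 for JUND, so the ranges of the pair did not overlap.

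Of 11 other AP-1 genes measured, 1 fell and 1 rose, with a median of -0.15. FOSL1, which encodes the Fos protein FRA1, rose to 8.41 and 8.40 with verticillin A, against 7.92 and 7.81 in control cells (0.54 ± 0.07, limma adjusted p = 0.0199). FRA1 is a partner of Jun proteins and is known to be raised by sustained ERK activity. The FOSL1 difference was opposite in direction to those of JUN and JUND, and ERK activity was not measured. JDP2, a Jun dimerization partner that represses AP-1 targets, fell to 5.87 and 5.88 with verticillin A, against 6.28 and 6.55 in control cells (-0.54 ± 0.10, limma adjusted p = 0.0387). JUNB, the third Jun gene, differed by -0.15 ± 0.09 (limma adjusted p = 0.339). FOS stood at -0.35 ± 0.08 and ATF3 at -0.43 ± 0.12, and both missed the threshold (limma adjusted p = 0.0537 and 0.0871).

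EGR1 encodes a zinc finger factor that is among the first genes switched on by ERK through serum response elements. Its brighter probe set read 9.87 and 9.81 with verticillin A, against 10.78 and 10.93 in control cells. The groups were at least 0.92 apart. The difference was -1.02 ± 0.08 (SE), or 49.3% of the control signal. A second EGR1 probe set was much dimmer, at 6.16 and 6.10 with verticillin A and 6.29 and 6.39 in control cells, and differed by -0.21. With both probe sets averaged the EGR1 difference was -0.61. Of 4 other genes of the EGR and NAB list measured, NAB2 fell and 0 rose. NAB2, a corepressor that binds EGR1 and is induced by it, fell to 7.22 and 7.18 with verticillin A, against 7.70 and 7.72 in control cells (-0.51 ± 0.07, limma adjusted p = 0.0179). NAB1 differed by -0.24 ± 0.07 (limma adjusted p = 0.109), and EGR3 and EGR4 read 4.03 or less on every array.

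The promoter sequences of JUN, JUND and EGR1 are shown because each holds a cAMP response element or a CArG box, to which Jun and ATF dimers or serum response factor are known to bind. They are the 250 bases upstream of a RefSeq start site on build GRCh38.p14, read 5′ to 3′ in the direction of transcription, for JUN from chr1:58784048-58784297 (minus strand), for JUND from chr19:18281623-18281872 (minus strand) and for EGR1 from chr5:138465229-138465478 (plus strand). Capitals mark the motif matches.
JUN: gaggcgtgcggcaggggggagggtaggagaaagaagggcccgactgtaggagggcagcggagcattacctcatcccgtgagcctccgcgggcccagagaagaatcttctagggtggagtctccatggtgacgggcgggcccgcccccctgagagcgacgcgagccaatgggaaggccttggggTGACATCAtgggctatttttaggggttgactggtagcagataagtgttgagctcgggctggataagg
JUND: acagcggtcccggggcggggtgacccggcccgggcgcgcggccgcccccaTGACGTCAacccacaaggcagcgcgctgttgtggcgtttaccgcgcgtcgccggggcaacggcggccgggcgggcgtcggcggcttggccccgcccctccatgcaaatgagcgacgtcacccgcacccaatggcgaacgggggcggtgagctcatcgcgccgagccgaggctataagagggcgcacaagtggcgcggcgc
EGR1: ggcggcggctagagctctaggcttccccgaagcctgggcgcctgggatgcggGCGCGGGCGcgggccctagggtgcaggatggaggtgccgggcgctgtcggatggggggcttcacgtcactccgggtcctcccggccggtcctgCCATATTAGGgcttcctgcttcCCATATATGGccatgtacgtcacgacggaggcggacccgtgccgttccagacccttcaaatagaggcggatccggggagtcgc

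Positions are counted in bases from the start site, with upstream positions negative. In JUN the capitals are TGACATCA, the variant cAMP response element, at -67 to -60. In JUND they are the full cAMP response element TGACGTCA, at -200 to -193. In EGR1 they are an EGR element (GCGNGGGCG) at -198 to -190, and a pair of CArG boxes, the core of the serum response element, at -105 to -96 and at -83 to -74. Windows of 250 bases before and 50 after the start were given for 6 of the 7 genes and were searched on both strands, and no matches overlapped. SPRY4 held an EGR element at -195 to -187, on the opposite strand. DUSP6 and BTC held none of the 6 motifs searched, which also included the AP-1 element TGANTCA and the ETS element CCGGAAGT. Over all 35116 RefSeq windows of the same length, 1.29% held a CArG box, 1.85% the full cAMP response element, 2.61% its JUN variant, 9.43% the EGR element, 7.71% the AP-1 element and 4.14% the ETS element. A match describes the letters of the window and does not show that a factor binds there.

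**Figure D3:**
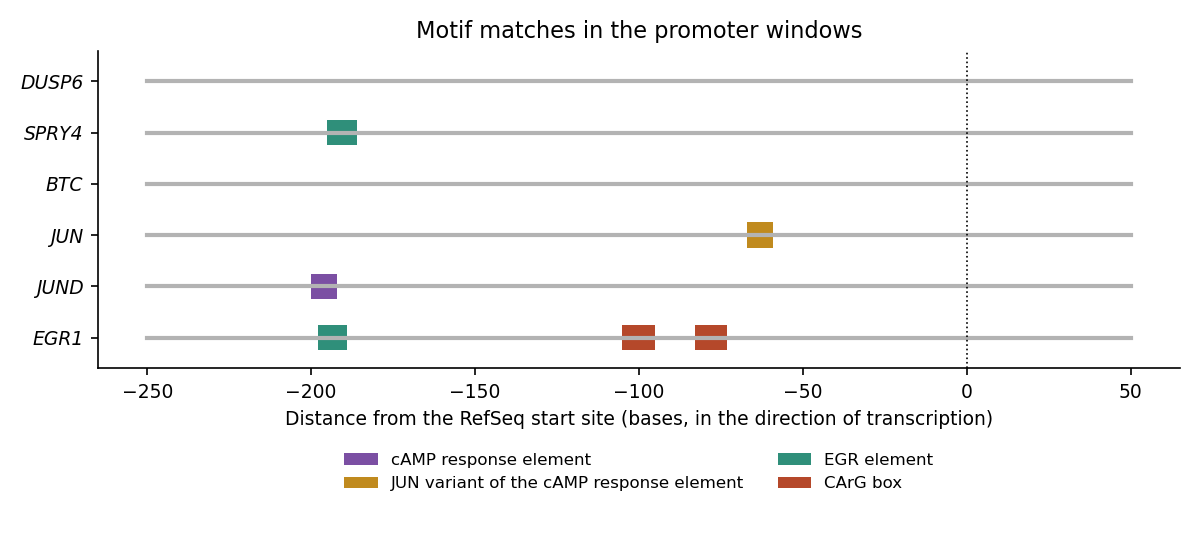
Positions of motif matches in the promoter windows of the 6 genes with a window, from 250 bases before to 50 after the RefSeq start site (dotted line), in bases. EGR1 holds 3 matches, SPRY4, JUN and JUND hold 1 each, and DUSP6 and BTC hold 0.

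By single-array differences (a treated minus a control array, 4 per gene), the genes formed a deeper and a shallower range, with BTC across both. The values lay between -1.14 and -0.92 for DUSP6, JUN and EGR1, and between -0.86 and -0.52 for SPRY4, ETV5 and JUND. These ranges did not overlap, but the gap between them was narrower than the SE of EGR1 (0.08) and of SPRY4 (0.09). The 4 differences of a gene share the same arrays, so the ranges are a description and do not test whether the genes differ. EGR1 has its place by its brighter probe set alone, since the average of both (-0.61) lies within the shallower range. The values of BTC ran from -1.39 to -0.68. Within each range the single-array differences of the genes overlapped. Among all pairs of the 7 genes, JUN and EGR1 had the most alike profiles over the 4 arrays, at a Euclidean distance of 0.06 between log2 values centred on each gene, followed by SPRY4 and JUND at 0.10.

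The same distance, taken over the 4 arrays against the other named genes, gave the closest profiles outside the group. For SPRY4 the nearest gene was ETV1 (distance 0.01), the ETS gene described above, before SPNS2 and ENPEP (0.04 each). For JUN it was VEGFA, the angiogenic growth factor gene (0.03), followed by GTPBP2 (0.06) and LEMD1 (0.08), and VEGFA was also the second nearest to EGR1 (0.05), after CPE (0.05) and before ASS1 (0.07). HOXB9 (0.05), SLFN5 (0.06) and PSAT1, a serine synthesis enzyme (0.07), were nearest to DUSP6. The nearest genes to ETV5 were OSBPL6 and PIP5KL1 (0.04 each) and TMEM268 (0.07), and those to JUND were MTVR2 (0.02), KLF11 (0.03) and HOXA10-AS (0.04). No gene came closer to BTC than MIR181B1 (0.26), followed by CLDN2 and MFNG (0.30 each). These genes were selected for likeness on 4 arrays, so their differences are not support for one another.

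The nearest measured genes on the chromosomes were taken by position alone. They lay 0.455 kb (MIR3188, from JUND) to 356 kb (EREG, from BTC) away, so unmeasured genes may lie between. Of 14 nearest measured genes, 1 on each side of each gene, 1 was called lower and 0 higher, and their differences ranged from -0.44 to 0.28. The called gene was PARM1, on chromosome 4 at 139 kb from BTC (-0.44 ± 0.07, limma adjusted p = 0.0282). EREG, measured on the other side of BTC, is given above. JUN-DT, the divergent transcript that starts beside JUN, read 3.91 and 3.75 with verticillin A and 3.73 and 3.82 in control cells, with overlapping groups at values below the array median. EGR1 and SPRY4, both on chromosome 5, were flanked by genes that did not pass.

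**Figure D4:**
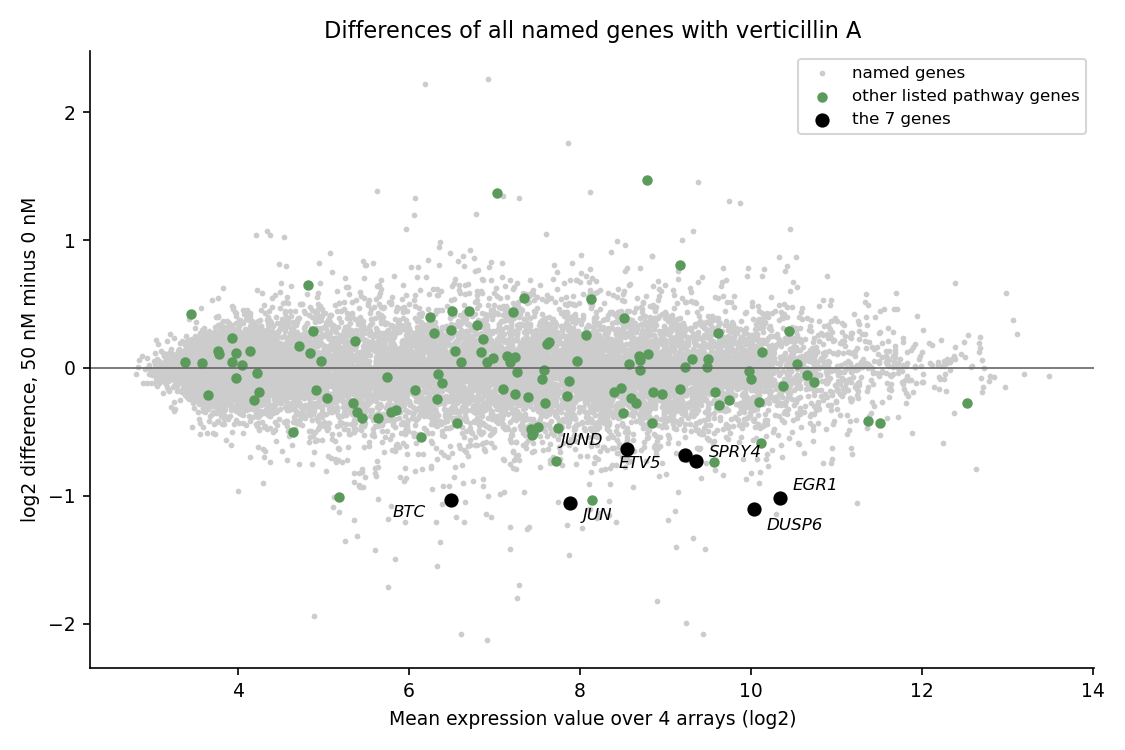
Log2 difference (50 nM minus 0 nM verticillin A) against the mean log2 value over 4 arrays for the 14884 named genes (grey), the other listed pathway genes (green) and the 7 genes (black, labelled). The 7 genes lie between -1.11 and -0.63, below the 5th percentile of all genes (-0.41), and the other pathway genes spread to both sides of 0.

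Further genes that ERK or AP-1 can induce were taken from lists drawn from general knowledge of the pathway. These lists were chosen with earlier results of these data known. Of 18 other immediate early genes measured, 4 fell and 3 rose, with a median of -0.18. KLF10 fell by 0.59, IER3 by 0.43, ARC by 0.39 and KLF4 by 0.34 on the log2 scale (limma adjusted p = 0.0415, 0.0304, 0.0331 and 0.0423). IER3, an ERK-induced survival gene, had 11 probe sets, but several carried identical values, leaving 4 distinct profiles with differences from -0.47 to -0.43. The call of KLF4 ended with an intensity trend in the prior (adjusted p = 0.0821). PLK2 rose to 9.62 and 9.54 with verticillin A, against 8.70 and 8.84 in control cells (0.81 ± 0.08, limma adjusted p = 0.0113). PLK3, a polo-like kinase gene as PLK2 is, rose by 0.55 ± 0.07 (limma adjusted p = 0.0168). IER5 rose by 0.45 ± 0.09 (limma adjusted p = 0.0468, and 0.0537 after quantile normalization). SRF, named here after its value was seen because it binds CArG boxes, differed by 0.11 ± 0.08 and did not pass.

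The list of genes often used to read ERK output held 13 other measured genes, of which 2 fell and 1 rose, with a median of -0.21. IER3 and FOSL1 are among them and are given above. The cytokine gene LIF fell by 0.47 on the log2 scale (limma adjusted p = 0.0497, and 0.051 after centring). Chosen after their values were seen, CCND1, the cyclin D1 gene, had 10.55 and 10.63 with verticillin A and 10.27 and 10.33 in control cells (0.29 ± 0.07, limma adjusted p = 0.0697). MYC differed by -0.29 ± 0.07 (limma adjusted p = 0.0591), and neither passed.

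Genes of the JNK and p38 cascade, which phosphorylate Jun and ATF proteins, gave 0 calls in limma among 17 measured, with a median of 0.03. MAP2K6, a kinase that activates p38, had the lowest difference (-1.01 ± 0.29), with 4.89 and 4.47 in treated cells against 6.10 and 5.28 in control cells, and did not pass (limma adjusted p = 0.0954). MAP2K4, a JNK kinase, stood at 0.34 ± 0.11 (limma adjusted p = 0.128).

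Listed genes linked to AP-1 in general knowledge, many of them matrix and invasion genes, went in both directions. There were 2 lower and 3 higher of 11 measured, with a median of 0.07, and AP-1 binding was not measured. VEGFA fell to 7.62 on both treated arrays, against 8.60 and 8.71 in control cells (-1.03 ± 0.07, limma adjusted p = 0.00643), and the adhesion receptor CD44 fell by 0.41 on the log2 scale (limma adjusted p = 0.0274). HMOX1, which is also a target of NRF2, rose by 1.47 ± 0.08 (limma adjusted p = 0.00335), and SPP1, the osteopontin gene, rose by 1.37 ± 0.14 (limma adjusted p = 0.0117). VIM rose by 0.40 ± 0.07 (limma adjusted p = 0.0344). Its 3 probe sets differed by 0.03 to 0.40, and their average, 0.16, did not pass (adjusted p = 0.224).

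Taken over all lists, 116 of the 172 other genes were measured. Of these, 16 fell (13.8%), 10 rose (8.62%) and 90 did not pass, beside 5.1% and 3.55% of all genes. Because the lists were chosen with earlier results of these data known, these shares are a description. The median of the 116 was -0.04, beside -0.01 over all genes. The shares over all genes count dim genes too. Without the dimmest 50% of genes, limma called 1329 lower and 1070 higher of 7442. Among the listed genes it then called 24 lower and 15 higher. The filter removed some of the 116, and how many it left was not counted, so no share is given for them. How far brightness enters the difference between the shares was not tested. No test of the lists against other genes was made. Counts of calls rested on every array. Over all genes limma called 759 lower and 528 higher, or 668 lower and 750 higher after centring the arrays on their medians. It called 0 genes without control replicate 1 or without control replicate 2, where the unadjusted p was under 0.05 for 3715 and 3528 genes. With verticillin A replicate 1 left out, 2 of the listed genes rose and 1 fell, and with verticillin A replicate 2 left out, 3 rose and 2 fell. All 26 listed genes called with 4 arrays kept their direction whichever array was left out. This was fixed beforehand, because the groups did not overlap in any of the 26.

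**Figure D5:**
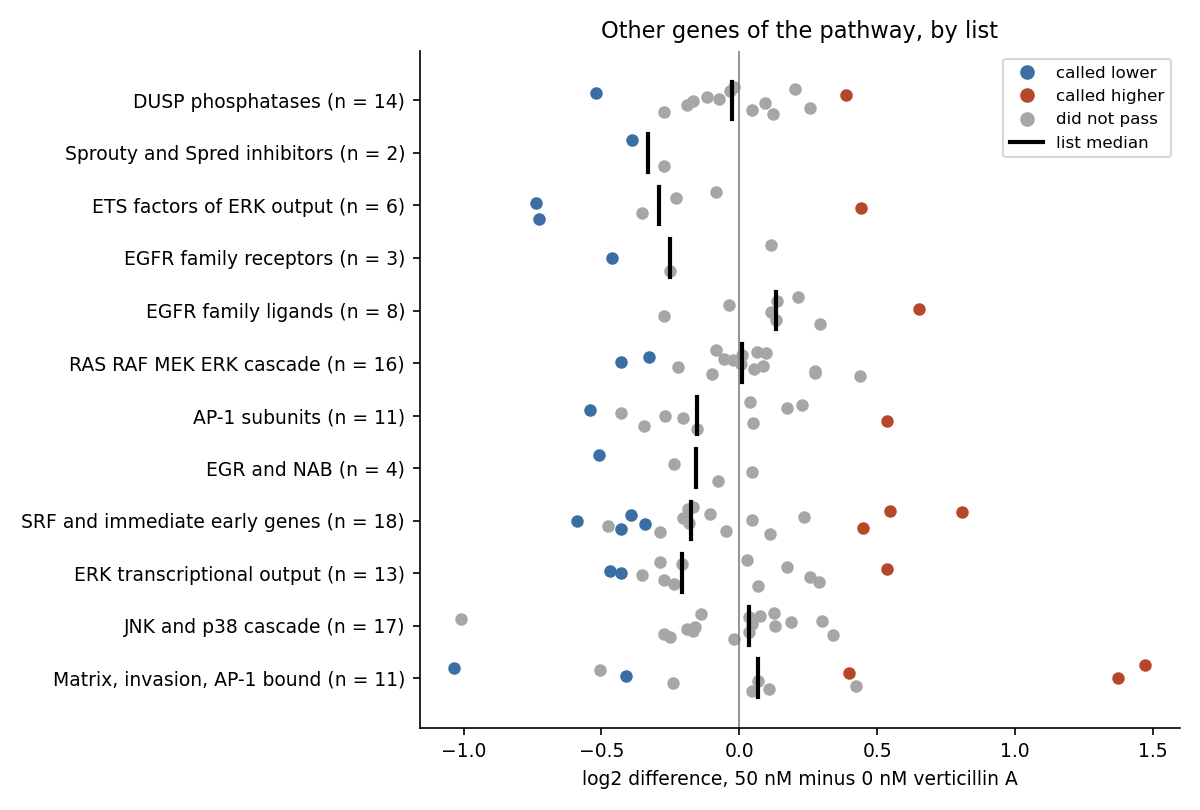
Log2 differences (50 nM minus 0 nM verticillin A) of the measured genes of each list, leaving out the 7 chosen genes (blue, called lower; red, called higher; grey, did not pass; black bar, list median). Medians run from -0.33 (Sprouty and Spred, 2 genes) to 0.13 (EGFR family ligands, 8 genes), and the JNK and p38 list has 0 called genes.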

How the data were processed

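Transcripts were measured on 4 Affymetrix whole-transcript arrays, 2 per group, from 250 ng of total RNA each, per the labels' protocols. The values deposited by the authors are log2 signals, 1 for each array and probe set, from GCRMA per the submitters' processing notes. The sources used here do not give its version, build, annotation or filters. The log2 scale was read from the range, 2.60 to 14.47. Equal RNA masses were labelled and array medians were alike, so a change in total RNA per cell would not show.

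Of 53617 probe sets, 16098 carried 1 gene symbol, 0 several and 37519 none. All 16098 matched the RefSeq gene table (GRCh38.p14) by identifier, and 14884 genes remained after keeping the brightest probe set per gene. The comparison used R 4.3.3 and limma 3.58.1 (functions lmFit and eBayes, all 4 arrays, no filter), with Benjamini-Hochberg adjustment over all 14884 genes. The fit was tested on simulated data. SE is the moderated standard error.

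The 7 genes, the pathway lists and the naming rule were chosen with earlier results of these data known. The rule lets any measured gene of the family lists be named, of which the text gives some, and names up to 4 called genes in each direction of the other lists, or 2 where none passed, and the 3 nearest profiles per gene. Genes named outside it are marked in the text, apart from cell type markers and the neighbours, taken by position. Promoter sequences are from RefSeq. The alternatives were quantile normalization, centring, averaged probe sets, a filter on dim genes, a variance trend, a replicate block and leaving out each array. The number of arrays limits the precision of every value.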

Additional observations from a re-analysis of the deposited data

How the results depend on the processing

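The 7 genes had a lower value with verticillin A in all 49 combinations of gene and alternative computed for them. The alternatives here were quantile normalization, centring, averaged probe sets and leaving out each array. Of the 49 values, 47 lay within 1 SD (of the group with the wider spread) of the value as deposited. The exceptions were DUSP6 after centring (-1.07) and EGR1 with averaged probe sets (-0.61). Most of this outcome was fixed beforehand. With no overlap between groups, leaving out an array could neither reverse a difference nor shift it by 1 SD. Averaging could change EGR1 alone, as the other genes had 1 probe set. The median difference of the 7 genes, -1.02, was -0.73 with averaged probe sets. It ranged from -1.05 to -0.81 when single arrays were left out. Counts of calls moved more. Without the dimmest 50% of genes, limma called 1070 genes higher and 1329 lower, with fewer genes to adjust over, and with an intensity trend 1067 higher and 1361 lower, of which 26 lower among the listed genes. The labels do not say whether same-numbered samples belong together. Deviations of same-numbered arrays correlated at 0.01 over genes, which does not show how the samples were handled. Taking the replicate number as a block, limma called 228 higher and 364 lower over all genes. Among the listed genes it called 6 higher and 7 lower, with 1 residual degree of freedom in place of 2. When single arrays were left out, the calls ranged from 0 to 52 higher and from 0 to 105 lower over all genes, and from 0 to 3 higher and from 0 to 2 lower among the listed genes, and the lone array of a group was then assumed to vary like the other group. Of the 26 listed genes called, 11 kept their call under all 6 alternatives that used 4 arrays. NRG1 kept it under the 5 in which it was tested, as the filter on dim genes removed it. With the block, limma did not call ARC, CD44, DUSP14, ERBB3, ETS1, GAB1, IER3, IER5, JDP2, KLF4, LIF, SOS2, SPRY3 or VIM (14 genes, adjusted p from 0.05001 for LIF to 0.0891 for GAB1). With 2 arrays per group and no detection calls, dim genes such as EGR3 cannot be separated from background.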
